A study of Mus musculus with 10 samples.

Results

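A set of 10 genes, several of them better known from nerve, gut and kidney than from lymphocytes, was followed in RNA of mouse germinal center B cells: Reln, Ret, Lgr5, Tgfa, Scn11a, Scn8a, Tifa, Zkscan16, Ccdc190 and Dnase1. They are 10 of the 55421 genes of the count table, and all 10 were among the 16596 that passed the filter on low counts. They were chosen from these same libraries, for the size of their fall in fraction CC against fraction CB in at least 1 genotype. The CC and CB values of the 10 genes are therefore given as a description, with no test. Tests are given for the comparison of genotypes within a fraction, which uses the same libraries but was not the ground for the choice, and for other genes of the same pathways.

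The study sequenced total RNA, depleted of ribosomal RNA, from spleen B cells of C57BL/6 mice aged 8 to 10 weeks, taken on day 10 after an immunization and enriched on magnetic beads for the lectin PNA, which binds germinal center B cells. The mutant mice were Pbrm1-/-, called HOMO, and the others Pbrm1+/+, called WT. Pbrm1 encodes a subunit of the PBAF chromatin remodelling complex. The 10 libraries form 4 groups, 2 libraries each of HOMO CC and HOMO CB, and 3 each of WT CC and WT CB. The labels neither spell out CB and CC, nor say how they were separated, nor describe the Pbrm1 allele, the cells in which it was lost or the antigen. The columns of the count table also carry the letters AID, which the labels do not explain. Nothing states that libraries of 1 group came from separate mice; p-values therefore cover library-to-library spread only, part of which may be technical. HOMO libraries are named here by the numbers 2 and 3 of the count table.

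In a germinal center, B cells divide and mutate their antibody genes in a dark zone and are selected for antigen binding in a light zone, and they are known to move between the zones. Most of the 10 genes belong to signalling systems described in other tissues: reelin guides migrating neurons, RET serves the developing gut nervous system and kidney, LGR5 marks stem cells of intestinal crypts, and voltage-gated sodium channels carry the action potential of neurons. TGF-alpha is a growth factor of the EGF family, DNase I cuts DNA outside cells, and TIFA is an adaptor of innate immune signalling, so that a non-lymphoid label covers Tifa less well. For Zkscan16 and Ccdc190 that label was not examined.

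The libraries held 9954006 to 15514361 counts in HOMO CC, 13662538 to 27091509 in WT CC, 27034386 to 67625110 in HOMO CB and 26372234 to 61627968 in WT CB. Levels are in CPM, the usual count unit scaled to library size, here with TMM factors. Pbrm1 itself was at 152 and 150 CPM in HOMO CC, against 239, 239 and 250 CPM in WT CC, and at 178 and 164 CPM in HOMO CB, against 319, 309 and 312 CPM in WT CB, so Pbrm1 reads were reduced in the HOMO libraries but not lost. Summed over 6 B cell markers, the level was 4183 to 5440 CPM in all libraries. Dark zone markers (Cxcr4, Foxo1, Ccnb1, Aurka and Polh) summed to 451.1 to 581.6 CPM in CC and 1029 to 1306 CPM in CB. Light zone markers (Cd83, Cd86, Myc, Nfkbia, Bcl2a1b and Egr3) summed to 753.8 to 858.7 CPM in CC and 328.7 to 397.8 CPM in CB.

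Most markers of nerve, glia, gut epithelium and stroma were at or near 0; kidney markers were not examined. Of 9 neuron markers, Snap25, Stmn2, Nefl, Nefm and Elavl4 had 0 reads in every library, while Syt1 and Rbfox3 stayed at or below 0.0344 CPM. The list summed to 6.37 to 12.01 CPM in CC and 15.5 to 21.4 CPM in CB, nearly all of it from Map2 and Tubb3, and its part in the CC and CB differences was not tested. Map2 alone was at 5.87 to 11.1 CPM in CC and 13.2 to 19.85 CPM in CB, lower in every CC library and as high in CB as several of the 10 genes. Of 6 Schwann cell and enteric glia markers, Sox10, S100b and Foxd3 had 0 reads, and the list summed to 1.45 to 2.01 CPM in CC and 0.659 to 1.35 CPM in CB. The 6 epithelial markers summed to at most 3.02 CPM, and 4 intestinal stem cell markers (Ascl2, Olfm4, Smoc2 and Axin2) to at most 0.915 CPM, with Smoc2 at 0. The 8 stromal markers summed to at most 1.31 CPM, with Col3a1, Dcn, Lum and Ccl19 at 0.

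Libraries of 1 group were not alike in other cell types. Macrophage markers summed to 15.8 and 21.4 CPM in HOMO CC, in WT CC to 476.7 CPM (library 1), 114.8 CPM (library 2) and 30.3 CPM (library 3), and to 7.58 to 13.98 CPM in CB. The same WT CC libraries stood apart in 5 erythroid markers, at 48.1, 9.27 and 0.562 CPM, against at most 1.99 CPM in every other library. Likewise, 5 lymphatic and sinusoidal endothelial markers summed to 21.1, 6.94 and 0.702 CPM in WT CC, nearly all of it Stab2 in libraries 1 and 2, against at most 0.915 CPM elsewhere. Neutrophil markers summed to 126.1 CPM in HOMO CC library 2 and 158.5 CPM in HOMO CB library 2, against at most 14.5 CPM in every other library. In bulk RNA, fewer cells of a type and less RNA per cell cannot be told apart.

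Promoter windows were looked up because the 10 genes shared the direction of their CC and CB difference. The RefSeq promoter table (GRCm38.p6) matched 7 of the 10 genes with 11 start sites, and none for Ret, Lgr5 and Zkscan16. The 3 windows printed here are the ones whose 250 bases before the start lay wholly outside the annotated gene. They are Reln at chr5:22344706-22344955 on the minus strand, Tgfa at chr6:86194972-86195221 on the plus strand and Scn11a at chr9:119825457-119825706 on the minus strand. Each is written 5′ to 3′ along the gene, with capitals on the motifs found.
Reln: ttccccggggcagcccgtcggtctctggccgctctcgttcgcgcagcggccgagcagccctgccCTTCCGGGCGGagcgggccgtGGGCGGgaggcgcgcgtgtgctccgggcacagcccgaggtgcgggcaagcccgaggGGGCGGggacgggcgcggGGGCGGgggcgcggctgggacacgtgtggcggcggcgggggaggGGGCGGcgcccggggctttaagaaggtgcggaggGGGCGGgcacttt
Tgfa: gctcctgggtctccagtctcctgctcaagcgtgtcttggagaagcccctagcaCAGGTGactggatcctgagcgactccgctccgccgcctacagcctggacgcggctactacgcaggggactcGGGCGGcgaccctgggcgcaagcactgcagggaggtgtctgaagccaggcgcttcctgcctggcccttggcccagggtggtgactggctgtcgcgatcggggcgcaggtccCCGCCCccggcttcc
Scn11a: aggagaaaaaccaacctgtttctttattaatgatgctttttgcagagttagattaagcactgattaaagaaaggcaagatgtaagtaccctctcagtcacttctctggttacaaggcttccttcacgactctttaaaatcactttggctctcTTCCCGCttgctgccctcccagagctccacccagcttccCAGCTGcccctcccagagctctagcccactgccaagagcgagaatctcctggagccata

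The 3 windows differed widely in base composition. The Reln window had 37 CpG, for a CpG observed to expected ratio of 0.987, while the median over 32851 RefSeq promoters was 0.374. The Tgfa window had a GC content of 69.2%, 19 CpG and a ratio of 0.635. The Scn11a window had a GC content of 48.0%, 3 CpG and a ratio of 0.222, below the median.

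A list of 11 motifs was searched on both strands. GGGCGG (SP) occurred 6 times in the Reln window and 2 times in the Tgfa window. It was also in a window of Ccdc190, and 32.7% of all promoters held it. CCGGAAG (ETS) was in the Reln window and in 6.91% of all promoters, and its single match there overlaps a GGGCGG match. CAGGTG (an E-box) was in the Tgfa window, in a window of Ccdc190 and in 17.2% of all promoters. CAGCTG (an E-box) was in the Scn11a window and in 13.0% of all promoters, and TTCCCGC (E2F) in the Scn11a window and in 3.82% of all promoters. Of the other motifs, TATAAA (the TATA box, 12.4% of all promoters) was in a window of Tifa and of Dnase1, CCAAT (NF-Y, 33.9%) in a window of Tifa, Ccdc190 and Dnase1, and TTTGAA (cell cycle homology region, 15.99%) in a window of Ccdc190. ATGCAAAT (octamer, 1.60%), TGTTTAC (forkhead, 3.17%) and the NF-kB motif (0.14%) were in none of the 11 windows. No motif was in windows of all 7 genes. The matches are a description of letters and are not binding sites.

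All 10 genes were lower in every CC library than in every CB library of the same genotype. This is the difference for which they were chosen, and nothing is read from it. The background is that 33.2% of all genes tested were lower without overlap in HOMO CC and 17.9% in WT CC. The plot of levels by library shows the 4 groups of each gene side by side.

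**Figure D1:**
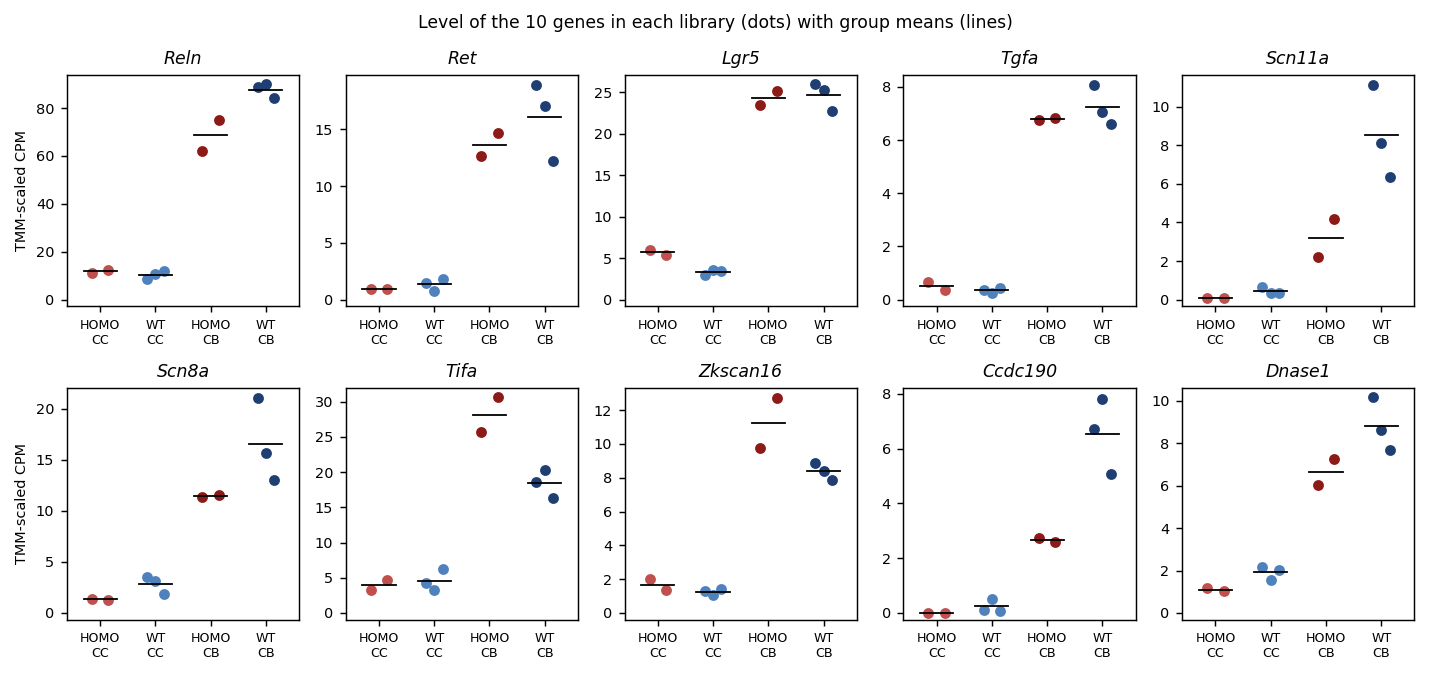
TMM-scaled CPM (linear axis from 0, a different range for each gene) of the 10 genes in each library. Dots are libraries, lines are group means, and each HOMO group has 2 libraries and each WT group 3; every dot in CC lies below every dot in CB of the same gene.

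Of the 2 secreted ligands, Reln encodes reelin, a large extracellular glycoprotein that binds the receptors VLDLR and LRP8. The gene lies on the minus strand at chr5:21884454-22344702 (mm10). Reln was at 11.1 and 12.5 CPM in HOMO CC and 8.42, 10.8 and 11.9 CPM in WT CC, against 62.1 and 75.03 CPM in HOMO CB and 88.8, 89.9 and 84.2 CPM in WT CB. The CC libraries of both genotypes overlapped, while both HOMO CB libraries lay below all WT CB libraries. The mean was 11.8 ± 1.05 CPM in HOMO CC and 68.6 ± 9.11 CPM in HOMO CB (SD, n = 2 each), a log2 change of -2.55 (SE 0.17). In WT it was 10.4 CPM (SD 1.797) in CC and 87.6 ± 3.05 CPM (SD) in CB (n = 3 each), a log2 change of -3.08 (SE 0.14). In CPM, Reln had the highest level of the 10 genes in every group, but its exons are also the longest, at 23738 bases.

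Tgfa, on the plus strand at chr6:86195223-86275719, encodes TGF-alpha, a membrane-bound ligand of the EGF receptor that the protease ADAM17 releases. Tgfa was at 0.671 and 0.380 CPM in HOMO CC and 0.370, 0.259 and 0.421 CPM in WT CC, against 6.74 and 6.84 CPM in HOMO CB and 8.08, 7.04 and 6.60 CPM in WT CB. The genotypes overlapped in both fractions. The CC values rest on 11 and 4 reads in HOMO and 9, 5 and 6 reads in WT. The log2 change in CC against CB was -3.63 (SE 0.35) in HOMO and -4.37 (SE 0.30) in WT.

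Receptors are encoded by Ret and Lgr5. Ret, on the minus strand at chr6:118151745-118197718, encodes the receptor tyrosine kinase for ligands of the GDNF family, which bind it together with a GFR-alpha coreceptor. Ret was at 0.915 and 0.949 CPM in HOMO CC and 1.48, 0.777 and 1.82 CPM in WT CC, against 12.6 and 14.6 CPM in HOMO CB and 18.9, 17.0 and 12.2 CPM in WT CB. The genotypes overlapped in both fractions, and WT CC libraries 2 and 3 differed 2.35-fold. In CC against CB the log2 change was -3.87 (SE 0.38) in HOMO and -3.57 (SE 0.29) in WT.

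Lgr5, on the minus strand at chr10:115450311-115587780, encodes a receptor for R-spondins, secreted proteins that raise the response of a cell to Wnt. Lgr5 was at 6.04 and 5.41 CPM in HOMO CC and 2.92, 3.62 and 3.51 CPM in WT CC, against 23.5 and 25.2 CPM in HOMO CB and 26.0, 25.3 and 22.8 CPM in WT CB. Both HOMO CC libraries lay above all 3 WT CC libraries, while the CB libraries of the genotypes overlapped. In CC against CB the log2 change was -2.08 (SE 0.17) in HOMO and -2.88 (SE 0.14) in WT.

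The sodium channels are Scn11a, on the minus strand at chr9:119753759-119825456, and Scn8a, on the plus strand at chr15:100869858-101045938. Scn11a encodes the pore of NaV1.9, known from pain-sensing neurons, and Scn8a that of NaV1.6, known from central neurons. Scn11a was at 0.0610 and 0.0949 CPM in HOMO CC and 0.657, 0.362 and 0.351 CPM in WT CC, against 2.23 and 4.17 CPM in HOMO CB and 11.1, 8.11 and 6.35 CPM in WT CB. HOMO lay below WT without overlap in both fractions, and each HOMO CC value is 1 read. Over the group, 2 reads in HOMO CC against 346 in HOMO CB is 48.7-fold fewer per read sequenced (95% exact binomial interval 13.4 to 403.4, for counting error only). In WT the log2 change of Scn11a in CC against CB was -4.16 (SE 0.39).

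Scn8a was at 1.40 and 1.23 CPM in HOMO CC and 3.49, 3.11 and 1.90 CPM in WT CC, against 11.3 and 11.6 CPM in HOMO CB and 21.0, 15.7 and 13.0 CPM in WT CB. HOMO was again below WT in every library of both fractions, and WT library 3 was the lowest WT library in each. From CB as the base, the log2 change in CC was -3.10 (SE 0.34) in HOMO and -2.52 (SE 0.25) in WT.

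Tifa, on the plus strand at chr3:127789805-127832164, encodes an adaptor that the kinase ALPK1 phosphorylates and that then activates TRAF6 and NF-kB signalling. Tifa was at 3.23 and 4.74 CPM in HOMO CC and 4.31, 3.31 and 6.18 CPM in WT CC, against 25.7 and 30.6 CPM in HOMO CB and 18.6, 20.3 and 16.3 CPM in WT CB. In CB both HOMO libraries lay above all WT libraries, and in CC the genotypes overlapped. The log2 change in CC against CB was -2.84 (SE 0.29) in HOMO and -2.01 (SE 0.22) in WT, the smallest fall of the 10 genes in WT.

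Zkscan16, on the plus strand at chr4:58943628-58958355, encodes a zinc finger protein of the family with KRAB and SCAN domains, most of which are nuclear factors that bind DNA. Zkscan16 was at 2.01 and 1.33 CPM in HOMO CC and 1.27, 1.09 and 1.40 CPM in WT CC, against 9.78 and 12.7 CPM in HOMO CB and 8.86, 8.42 and 7.85 CPM in WT CB. HOMO CB lay above WT CB without overlap. The log2 change in CC against CB was nearly the same in both genotypes, -2.73 (SE 0.28) in HOMO and -2.74 (SE 0.23) in WT.

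Ccdc190, on the plus strand at chr1:169928648-169934653, encodes a protein with a coiled-coil domain. Ccdc190 had 0 reads in both HOMO CC libraries and 0.123, 0.518 and 0.0702 CPM in WT CC, against 2.75 and 2.57 CPM in HOMO CB and 6.74, 7.83 and 5.09 CPM in WT CB. HOMO was below WT without overlap in both fractions. The WT CC values come from 3, 10 and 1 reads, 10 of them in library 2. With a floor of 3 counts over the HOMO CC group, 0.111 CPM, the level was at least 23.9-fold lower in HOMO CC than in HOMO CB, a limit for counting error only. In WT the log2 change in CC against CB was -4.74 (SE 0.53), and -5.94 without WT CC library 2. Exons of Gm15852, on the opposite strand, cover 35.8% of the Ccdc190 exon bases, and without a stated strand setting for the counting, reads of the 2 genes cannot be told apart there. Gm15852 itself was counted at 0.514 CPM or less.

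Dnase1, on the plus strand at chr16:4036942-4040024, encodes the secreted endonuclease DNase I. Dnase1 was at 1.16 and 1.04 CPM in HOMO CC and 2.18, 1.55 and 2.04 CPM in WT CC, against 6.04 and 7.24 CPM in HOMO CB and 10.2, 8.62 and 7.71 CPM in WT CB. HOMO was below WT without overlap in both fractions. The log2 change in CC against CB was -2.58 (SE 0.30) in HOMO and -2.19 (SE 0.23) in WT. The antisense gene Gm15879 covers 16.3% of the Dnase1 exon bases and was at 3.78 to 5.69 CPM in CC and 3.77 to 6.07 CPM in CB, with no fall in CC. Overlaps with other genes took at most 3.28% of the exon bases of any other of the 10 genes.

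Over the 10 genes, the median log2 change in CC against CB was -2.97 in HOMO, with Ccdc190 at its limit, and -2.99 in WT, while the median of all genes tested was -0.01 in HOMO and 0.01 in WT. The single values ran in HOMO between -2.08 for Lgr5 and -5.36 for Scn11a, which rests on 2 reads, and in WT between -2.01 for Tifa and -4.74 for Ccdc190. Values were more negative in HOMO for Ret, Scn11a, Scn8a, Tifa and Dnase1, and less negative for Reln, Lgr5 and Tgfa. No test of the difference between the genotypes was made, since it is built of the values that chose the genes.

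**Figure D2:**
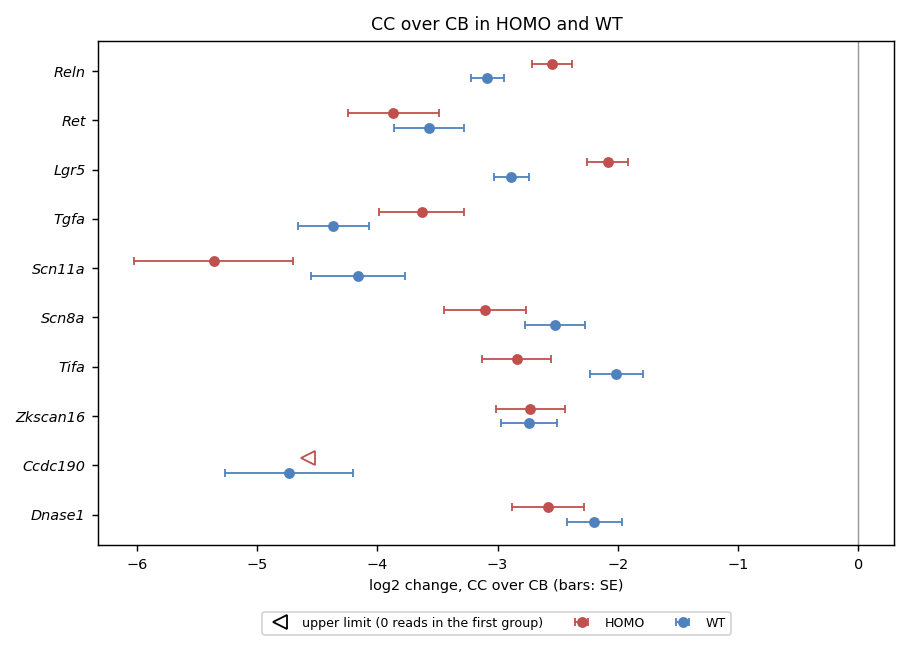
Log2 change in CC against CB of each gene in HOMO (red) and WT (blue), with bars of 1 SE; 0 means equal levels. The open triangle is the limit for Ccdc190 in HOMO, where both CC libraries had 0 reads, and every value lies below 0.

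The edge of the choice can be seen among named genes that averaged at least 5 CPM in CB and were lower in every CC library, given with no test. Gcnt3, a glycosyltransferase gene outside the set, had a log2 change of -2.94 in HOMO and -3.17 in WT, Gcsam of -2.32 in HOMO and -2.47 in WT, and Serinc5 of -2.23 in HOMO and -2.29 in WT. The smallest values inside the set were -2.08 for Lgr5 in HOMO and -2.01 for Tifa in WT, so the set is not the full list of large falls. In HOMO, Scn11a and Ccdc190 averaged under 5 CPM in CB.

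Levels of different genes were compared per length, as CPM per kilobase of exon (RPKM). Tifa was the highest of the 10 in every group, with 1.25 ± 0.334 RPKM in HOMO CC and 1.44 ± 0.455 RPKM in WT CC, against 8.80 ± 1.08 RPKM in HOMO CB and 5.75 ± 0.635 RPKM in WT CB (SD, n = 2 for HOMO and 3 for WT). Its libraries did not overlap those of the next gene in any group. In HOMO CB the order below Tifa was Zkscan16 (4.03), Reln (2.89), Lgr5 (2.37), Dnase1 (2.15), Ret (2.02), Ccdc190 (1.53), Tgfa (1.05), Scn8a (0.726) and Scn11a (0.540 RPKM). Lgr5, Dnase1 and Ret overlapped there. In WT CB it was Ccdc190 (3.78), Reln (3.69), Zkscan16 (3.00), Dnase1 (2.86), Lgr5 (2.40), Ret (2.37), Scn11a (1.44), Tgfa (1.12) and Scn8a (1.05 RPKM), and only Tifa and Ccdc190, and Reln and Zkscan16, did not overlap as neighbours.

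The same scale places the set among all genes. In CB the 10 genes stood between percentile 21.1 (Scn11a) and percentile 69.3 (Tifa) of genes tested in HOMO, and between percentile 29.6 (Scn8a) and percentile 59.5 (Tifa) in WT. In CC, Tifa stood at percentile 31.1 in HOMO and 32.6 in WT, and every other gene at percentile 22.2 or lower in HOMO and 20.8 or lower in WT. The set was therefore of middle or low level in CB, and Reln, the gene with the most counts, was at percentile 44.9 in HOMO CB and 50.2 in WT CB.

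Genotype within a fraction was not the ground for the choice, though it shares libraries with it, and in it the 10 genes did not move together. A gene chosen for a larger fall in 1 genotype may differ between genotypes through that choice, so these tests are not fully independent of it. In CB, 0 of the 10 genes passed the test (edgeR's quasi-likelihood test, Benjamini-Hochberg adjusted p under 0.05), where 0.0241% of all genes tested did. At an unadjusted p under 0.05 there were 4 of 10, where 12.5% of all genes did, and DESeq2 called 1 of 10, Scn11a, where it called 1.67% of all genes. The median log2 change, HOMO over WT, was -0.29 over the 10 genes and -0.04 over all genes, with 2 genes higher and 8 lower. Libraries did not overlap for 7 of the 10 genes, of which 5 were lower in HOMO CB (Reln, Scn11a, Scn8a, Ccdc190 and Dnase1) and 2 higher (Tifa and Zkscan16), where 35.2% of all genes did not overlap (16.4% lower and 18.8% higher).

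In CB the largest differences were those of Scn11a and Ccdc190. Both averaged under 5 CPM in HOMO CB. Among genes of at least 5 CPM in CB they therefore ranked for their fall in WT only. A choice through high WT CB values may enter these differences, and their tests are not independent of it. Scn11a averaged 3.20 ± 1.37 CPM in HOMO CB (SD, n = 2) and 8.52 ± 2.41 CPM in WT CB (SD, n = 3), and the log2 change was -1.40 (SE 0.37, edgeR adjusted p = 0.238). Ccdc190 averaged 2.66 ± 0.122 CPM in HOMO CB and 6.55 ± 1.38 CPM in WT CB, and the log2 change was -1.30 (SE 0.47, edgeR adjusted p = 0.342). Tifa went the other way, with 28.2 ± 3.47 CPM in HOMO CB and 18.4 ± 2.03 CPM in WT CB, and the log2 change was 0.62 (SE 0.23, edgeR adjusted p = 0.340). For its fall Tifa ranked 5 in HOMO and 20 in WT. A choice through high HOMO CB values may enter its difference, and its test is not independent of that choice. None of these differences passed the threshold. The log2 change was -0.35 for Reln, -0.53 for Scn8a, -0.41 for Dnase1, 0.43 for Zkscan16, -0.23 for Ret, -0.09 for Tgfa and -0.02 for Lgr5, with edgeR adjusted p-values of 0.364 to 0.971.

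In CC, too, 0 of the 10 genes passed edgeR's quasi-likelihood test, where 0.0% of all genes tested did. At an unadjusted p under 0.05 there were 5 of 10, where 18.9% of all genes did, and DESeq2 called 1 of 10, Lgr5, where it called 4.92% of all genes. The median log2 change was -0.37 over the 10 genes and -0.03 over all genes, with 4 genes higher and 6 lower. Libraries did not overlap for 5 genes, of which Scn11a, Scn8a, Ccdc190 and Dnase1 were lower in HOMO CC and Lgr5 higher, and 35.2% of all genes did not overlap (17.4% lower and 17.7% higher).

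Lgr5 averaged 5.72 ± 0.448 CPM in HOMO CC (SD, n = 2) and 3.35 ± 0.380 CPM in WT CC (SD, n = 3), and the log2 change was 0.78 (SE 0.16, edgeR adjusted p = 0.101). Its change in CB was -0.02. Among named genes of at least 5 CPM in CB and lower in every CC library, Lgr5 ranked 7 for its fall in WT and 17 in HOMO. A choice through low WT CC values may enter its difference in CC, and its test is not independent of that choice. Scn8a averaged 1.32 ± 0.120 CPM in HOMO CC and 2.83 ± 0.833 CPM in WT CC, and the log2 change was -1.11 (SE 0.33, edgeR adjusted p = 0.143). Dnase1 averaged 1.10 ± 0.0819 CPM in HOMO CC and 1.92 ± 0.327 CPM in WT CC, and the log2 change was -0.79 (SE 0.29, edgeR adjusted p = 0.190). For Scn11a, 2 reads in HOMO CC against 28 in WT CC is 6.51-fold fewer per read sequenced (95% exact binomial interval 1.64 to 56.4, edgeR adjusted p = 0.142). Ccdc190 was at least 2.13-fold lower in HOMO CC, from the floor of 3 counts. That limit rests on WT CC library 2, with 10 of the 14 WT CC reads: without it the WT CC mean was 0.0967 CPM, under the floor of 0.111 CPM in HOMO CC, and no limit could be given. The log2 change was 0.64 for Tgfa, 0.44 for Zkscan16, 0.19 for Reln, -0.21 for Tifa and -0.53 for Ret, with edgeR adjusted p-values of 0.406 to 0.718.

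**Figure D3:**
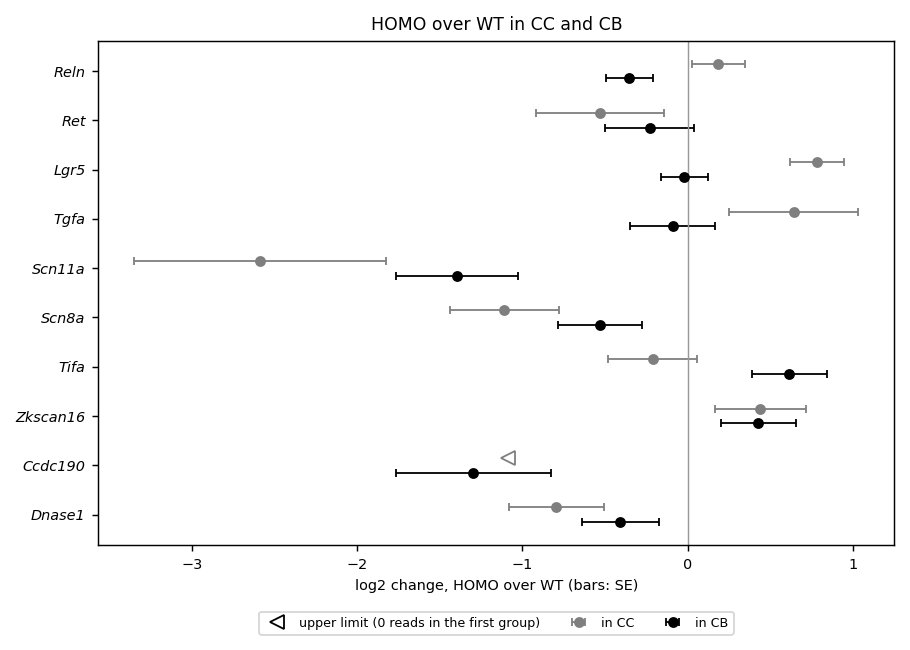
Log2 change of HOMO against WT for each gene in CC (grey) and CB (black), with bars of 1 SE; 0 means equal levels. The open triangle is the limit for Ccdc190 in CC, which exists only with WT CC library 2; Scn11a, Scn8a and Dnase1 lie below 0 in both fractions, as does Ccdc190 with that library, while Zkscan16 lies above 0 in both.

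The calls between genotypes depended on which WT libraries were kept and on the filter. Without both WT libraries of number 3, 5 of the 10 genes passed in CB (Reln, Scn11a, Scn8a, Tifa and Ccdc190), where 30.4% of all genes did, and 4 of 10 in CC (Lgr5, Scn11a, Scn8a and Ccdc190), where 31.3% did (edgeR). Leaving out WT CB library 3 alone gave 1 call in CB, Scn11a (adjusted p = 0.0235), where 12.1% of all genes passed. Leaving out WT CC library 3 alone gave 3 calls in CC, Lgr5 (adjusted p = 0.0128), Scn8a (0.0162) and Ccdc190 (0.0427), where 14.8% of all genes passed. The signs were as with all libraries. With no low-count filter and all libraries kept, the 4 genes Lgr5, Scn11a, Scn8a and Ccdc190 passed in CC, where 4.49% of all genes did, and 1, Scn11a, in CB, where 2.02% did. Without WT numbers 1 and 2 instead, 1 gene passed in CB, Tifa (adjusted p = 0.0278), where 4.07% of all genes did, and 0 in CC, where 3.95% did. All 10 genes lay below their group mean in WT CB library 3, by 0.06 (Reln) to 0.38 (Scn11a) on the log2 scale, and library 3 is also the WT CC library with the fewest macrophage reads. Whether these libraries and the genotype differences are linked was not tested. The choice of the genes may also enter the calls of Scn11a, Ccdc190, Tifa and Lgr5.

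Within groups the 10 genes did not vary as 1 block. After the group means were removed from log2 CPM, Pearson's r between 2 of the genes over the 10 libraries had a median of 0.140 across 45 pairs and was above 0 for 28 of them. The highest value was 0.875 for Tgfa and Zkscan16, followed by 0.853 for Ret and Dnase1 and 0.801 for Ret and Tifa, and the lowest was -0.733 for Ret and Ccdc190. The libraries share depth and composition, and groups of 2 libraries can only deviate in mirror image, so these values are a description.

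**Figure D4:**
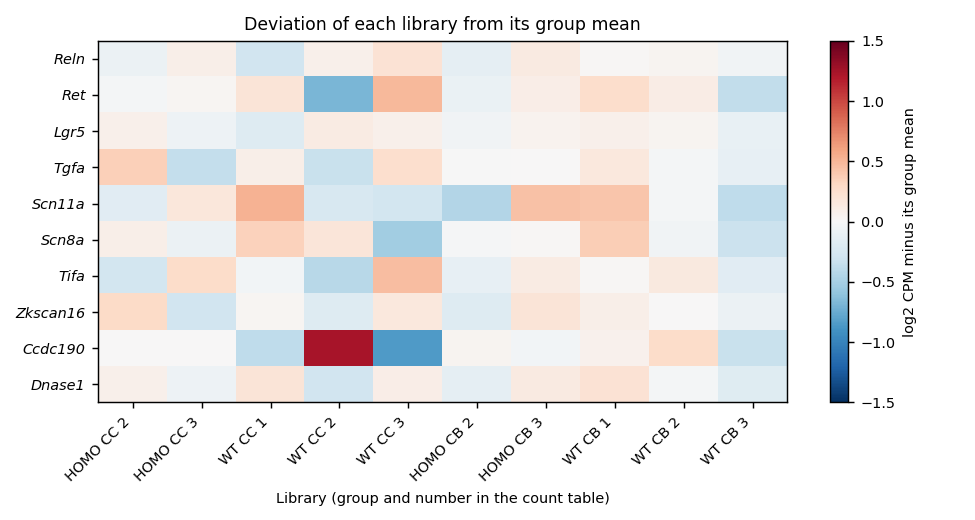
Deviation of each library from its group mean in log2 CPM with a prior count of 2 (colour, red above and blue below), genes in rows and libraries in columns. WT CB library 3 is below the mean for all 10 genes, and the strongest deviation is Ccdc190 in WT CC library 2, at 1.24, which rests on 10 reads; both HOMO CC libraries had 0 reads of Ccdc190.

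Partners of the 10 genes were present unevenly. Of 142 other listed genes of 8 families and pathways, 90 passed the filter on low counts, the other 52 stayed under 1 CPM in every library, and 26 of these had 0 reads. At the depth of all libraries together, 3 counts are 0.0100 CPM. The lists were drawn up with earlier results of these data known. For CC against CB, which these genes were not chosen for, 5 of the 90 were higher and 3 lower in HOMO (edgeR, adjusted p under 0.05), where 5.45% of all genes passed (2.46% higher and 2.98% lower), and 22 were higher and 14 lower in WT, where 23.9% of all genes passed (11.6% higher and 12.3% lower). The 8 calls in HOMO became 0 when any 1 HOMO library was left out (1.45% and 0.976% of all genes passed without a HOMO CB library, 1.07% and 1.27% without a HOMO CC library), 5 without WT CB library 1 (3.93% of all genes) and 13 without WT CC library 3 (9.7%). The 36 calls in WT became 18 when library 1 of WT CB was left out (12.7% of all genes), 19 when library 2 was (14.7%), 18 when library 1 of WT CC was left out (15.2%) and 23 when library 2 was (15.3%). The median log2 change over the 90 genes was 0.08 in HOMO and 0.10 in WT, against -0.01 in HOMO and 0.01 in WT over all genes. Between genotypes 0 of 90 passed in either fraction by edgeR; unadjusted p-values under 0.05 numbered 8 in CB and 23 in CC, and DESeq2 called 2 in CB and 5 in CC. Over all genes, the shares were 12.5% in CB and 18.9% in CC unadjusted, and 1.67% in CB and 4.92% in CC with DESeq2.

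**Figure D5:**
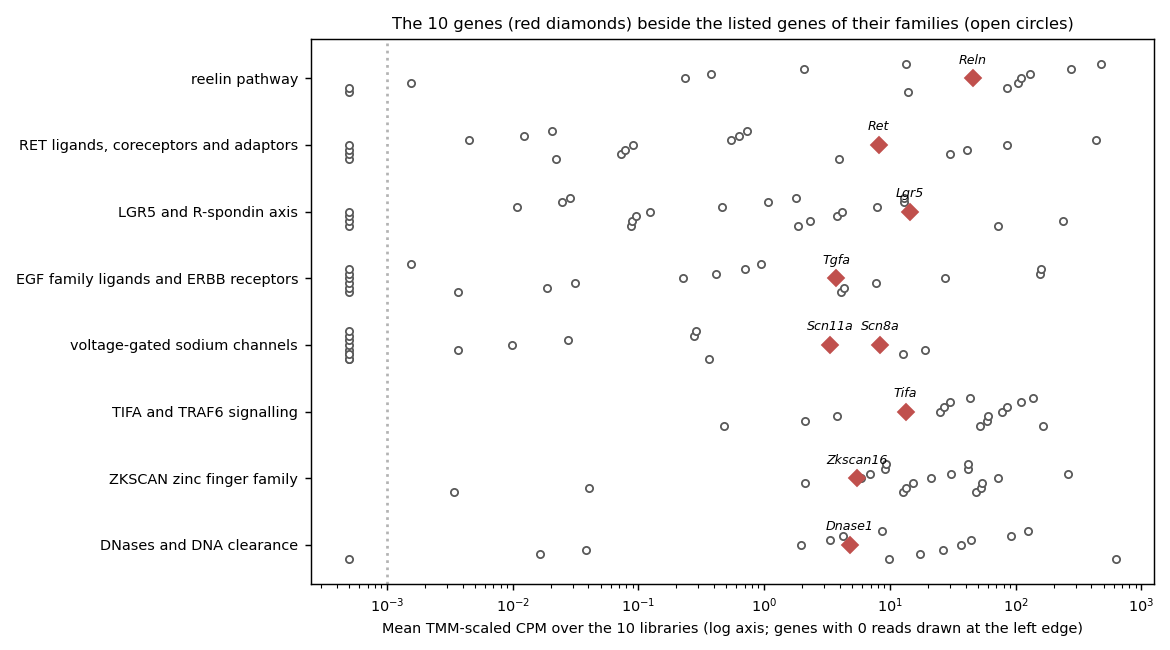
Mean level over the 10 libraries, in TMM-scaled CPM on a log axis, of the 10 genes (red diamonds) and the other listed genes of each family or pathway (open circles, 1 per gene); Ccdc190 belongs to no list. Genes left of the dotted line had 0 reads and are drawn at an arbitrary position; 26 of the 142 listed genes lie there.

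In the reelin pathway, 2 of 11 genes tested were higher and 0 lower in HOMO CC, and 6 higher and 1 lower in WT CC, with a median log2 change of 0.23 in HOMO and 0.43 in WT. Of the receptors, Vldlr had 0 reads, while Lrp8 was at 10.2 to 21.4 CPM, with a log2 change of 0.41 in HOMO (edgeR adjusted p = 0.424) and 0.65 in WT (adjusted p = 0.0379), a call that 11 of 20 alternatives did not keep. Dab1, the adaptor that reelin receptors need in neurons, had 1 read in all. Limk1, a kinase of the actin cytoskeleton, averaged 3.73 ± 0.850 CPM in HOMO CC and 1.03 ± 0.255 CPM in HOMO CB (log2 change 1.88, edgeR adjusted p = 0.0181), and 2.90 ± 0.402 CPM in WT CC and 0.790 ± 0.160 CPM in WT CB (log2 change 1.86, adjusted p = 0.00250). Fyn, a kinase of the Src family that acts in many lymphocyte pathways too, had log2 changes of 0.61 in HOMO (edgeR adjusted p = 0.0227) and 0.61 in WT (adjusted p = 0.00276). Both rose in CC, opposite to Reln.

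Ret had few of its known ligands and coreceptors beside it. Its adaptors were uneven: Grb2 was at 381.8 to 466.9 CPM and Shc1 at 70.98 to 106.0 CPM, while Dok5 and Dok6 had 0 reads. The ligand Gdnf and the coreceptor Gfra3 had 0 reads, Gfra1 had 2 and Gfra4 5 reads in all. Of 8 genes of this list tested, 0 passed in HOMO CC against CB and 1, Gfra2, in WT, and the median log2 change was 0.28 in HOMO and -0.01 in WT. Gfra2 was at 0.183 and 0.380 CPM in HOMO CC and 29.4, 8.13 and 0.702 CPM in WT CC, against 0.110 and 0.0146 CPM in HOMO CB and 0.197, 0 and 0 CPM in WT CB. The WT CC values run in the order of the summed macrophage markers, 476.7, 114.8 and 30.3 CPM. The erythroid sums and the lymphatic and sinusoidal endothelial sums run in the same order in WT CC, so it is not particular to macrophage markers. The part of these cell types was not tested, here or for the genes below with the same order. The WT call of Gfra2 (edgeR adjusted p = 0.0104) was lost in 3 of 19 alternatives. Among them were the fit without WT CB library 2 (adjusted p = 0.0584) and the random replicate block of limma (0.213).

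The other receptors for R-spondins were at low levels. Lgr4 was at 2.59 to 4.93 CPM and Lgr6 at 0.702 to 3.17 CPM, and neither passed in CC against CB. The log2 change of Lgr4 was 0.07 in HOMO (edgeR adjusted p = 0.946) and 0.23 in WT (adjusted p = 0.562). That of Lgr6 was negative, as for Lgr5, at -1.09 in HOMO (edgeR adjusted p = 0.318) and -0.54 in WT (adjusted p = 0.413), and Lgr6 libraries did not overlap in HOMO (0.732 and 1.99 CPM in CC, 2.45 and 3.17 CPM in CB). The ligands Rspo2, Rspo3 and Rspo4 had 0 reads, and Rspo1 had 6 reads, all in WT CC library 1. Of 12 genes tested in the list, 1 was higher and 0 lower in HOMO CC, and 5 were higher and 2 lower in WT CC, with a median log2 change of 0.35 in HOMO and 0.58 in WT. Znrf3, the ubiquitin ligase that LGR5 with an R-spondin removes from the cell surface, was the one in HOMO, at 12.6 ± 1.24 CPM in CC and 7.70 ± 0.355 CPM in CB (log2 change 0.71, edgeR adjusted p = 0.0363); it was named after its value was seen. Ctnnb1, which encodes beta-catenin, fell in WT CC by 0.51 on the log2 scale (edgeR adjusted p = 0.00394), and had a log2 change of -0.32 in HOMO (adjusted p = 0.159, and 0.0290 without WT CB library 3). Tcf7l2, a Wnt-responsive transcription factor gene, was at 0.488 and 1.14 CPM in HOMO CC and 26.6, 9.01 and 1.54 CPM in WT CC, against 0.586 and 0.468 CPM in HOMO CB and 0.473, 0.309 and 0.996 CPM in WT CB, again in the order of the macrophage markers in WT CC. Its WT call (edgeR adjusted p = 0.00991) was lost in 4 of 20 alternatives, among them the fits without WT CB library 1 (adjusted p = 0.0514) and without WT CB library 2 (0.0532). Without WT numbers 1 and 2 the log2 change of Tcf7l2 in WT dropped from 4.31 to 0.61.

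For Tgfa, the receptor was nearly unread: Egfr had 1 read in all 10 libraries and Erbb4 had 0. The related ligands Areg, Ereg, Btc and Epgn had 0 reads, while Egf was at 3.35 to 5.71 CPM and Hbegf at or below 0.9185 CPM. Neither Egf nor Hbegf passed in CC against CB with all libraries. Erbb3 was at 5.49 to 10.2 CPM and passed in neither genotype with all libraries, but in WT without WT CB library 3 (adjusted p = 0.0326). Adam17, the protease that sheds TGF-alpha, was at 144 to 169 CPM, with log2 changes in CC against CB of -0.02 in HOMO and 0.07 in WT, and passed in neither. Rhbdf2, whose product helps ADAM17 mature, averaged 34.0 ± 5.01 CPM in WT CC and 23.1 ± 4.18 CPM in WT CB (log2 change 0.57, edgeR adjusted p = 0.0191), with 0.56 in HOMO (adjusted p = 0.109). Without WT CC library 1 the WT call of Rhbdf2 was lost (adjusted p = 0.0816), and without WT CB library 3 or WT CC library 3 it passed in HOMO (0.0269 and 0.0460). Of the 10 genes tested in this list, 0 passed in HOMO, and 3 were higher and 1 lower in WT CC, with a median log2 change of -0.04 in HOMO and 0.04 in WT. Adam10, another shedding protease, was the one that fell in WT CC, to 115 ± 20.5 CPM, against 189 ± 8.00 CPM in WT CB (log2 change -0.72, edgeR adjusted p = 0.00162), with -0.53 in HOMO (adjusted p = 0.0540, and 0.0332 without WT CB library 3 or 0.00595 without WT CC library 3). Erbb2 had 95 reads in WT CC, most of them in library 1, against 1 read in WT CB, a ratio of 194.8 (95% exact binomial interval 34.1 to 7774, counting error only). Its call (edgeR adjusted p = 0.0153) was lost without WT CB library 1 (0.0527) or WT CB library 2 (0.0569). Erbb2 had 0 reads in HOMO, and its WT CC values of 3.29, 0.725 and 0.0702 CPM also run in the order of the macrophage markers.

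Few other sodium channel genes were read. Scn1a, Scn2a, Scn7a, Scn9a, Scn10a and the auxiliary subunit gene Scn4b had 0 reads, and Scn3b had 6 reads in all. Of 5 other genes tested, 0 were higher and 1 lower in HOMO CC, and 1 was higher and 2 lower in WT CC, with a median log2 change of -0.72 in HOMO and -0.83 in WT. Fgf11 averaged 7.13 ± 0.698 CPM in HOMO CC and 16.2 ± 0.913 CPM in HOMO CB (log2 change -1.17, edgeR adjusted p = 0.0262), and 7.84 ± 1.76 CPM in WT CC and 18.7 ± 4.72 CPM in WT CB (log2 change -1.25, adjusted p = 0.00225). Scn4a, the channel of skeletal muscle, averaged 12.4 ± 1.81 CPM in HOMO CC and 20.1 ± 1.07 CPM in HOMO CB (log2 change -0.71, edgeR adjusted p = 0.0790), and 14.8 ± 3.67 CPM in WT CC and 26.7 ± 1.08 CPM in WT CB (log2 change -0.86, adjusted p = 0.00465). Both fell in WT CC, and Fgf11 also in HOMO CC. Scn4a passed in HOMO without WT CC library 1 (adjusted p = 0.0376) or WT CC library 3 (0.0245).

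All 15 other genes of the TIFA and TRAF6 list were tested, and 0 passed in HOMO, while 3 were higher and 4 lower in WT CC, with a median log2 change of 0.08 in HOMO and -0.10 in WT. Traf6, the ubiquitin ligase downstream of TIFA, averaged 47.2 ± 2.56 CPM in WT CC and 68.4 ± 2.77 CPM in WT CB (log2 change -0.54, edgeR adjusted p = 0.00167), and in HOMO the log2 change was -0.38 (adjusted p = 0.0630), which passed without WT CB library 3 (0.0305) or WT CC library 3 (0.0339). Tab2, which couples TRAF6 to the kinase TAK1, fell in WT CC by 0.49 on the log2 scale (edgeR adjusted p = 0.00265). Alpk1, the kinase upstream of TIFA and its left neighbour at a distance of 9.3 kb, was at 2.69 and 3.04 CPM in HOMO CC and 5.30, 2.59 and 1.54 CPM in WT CC, against 1.65 and 1.23 CPM in HOMO CB and 1.06, 0.962 and 1.21 CPM in WT CB. It rose in WT CC (log2 change 1.55, edgeR adjusted p = 0.0210), opposite to Tifa. This call was lost in 5 of 20 alternatives, among them the fits without WT CB library 1 (adjusted p = 0.0728), WT CB library 2 (0.0703) and WT CC library 1 (0.107). Without WT numbers 1 and 2 the log2 change of Alpk1 in WT was 0.32. Alpk1 too runs in the order of the macrophage markers in WT CC. Tifab, a relative of Tifa known to inhibit it, was at or below 0.569 CPM outside WT CC and at 2.51, 1.19 and 0.211 CPM in WT CC, again in the order of the macrophage markers; in HOMO CC it was at 0.0610 and 0.569 CPM, where those markers summed to 15.8 and 21.4 CPM. It rose in WT CC (log2 change 4.79, edgeR adjusted p = 0.00776, and 0.542 without WT numbers 1 and 2), with 1.93 in HOMO (adjusted p = 0.475).

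In the ZKSCAN family, 17 other genes were tested; 0 were higher and 2 lower in HOMO CC, and 0 were higher and 3 lower in WT CC, with a median log2 change of 0.01 in HOMO and 0.05 in WT. Zkscan17 averaged 28.6 ± 1.08 CPM in HOMO CC and 41.8 ± 0.591 CPM in HOMO CB (log2 change -0.55, edgeR adjusted p = 0.0390), and 35.9 ± 2.81 CPM in WT CC and 55.7 ± 6.38 CPM in WT CB (log2 change -0.63, adjusted p = 0.00242). Zscan26 had log2 changes of -0.41 in HOMO (edgeR adjusted p = 0.0479) and -0.39 in WT (adjusted p = 0.00806), and the HOMO call was lost in 11 of 20 alternatives. Trim28, the corepressor that KRAB zinc finger proteins bind, was at 224 to 285 CPM and passed in neither genotype.

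Of 12 other genes of DNases and DNA clearance tested, 2 were higher and 0 lower in HOMO CC, and 3 were higher and 1 lower in WT CC, with a median log2 change of 0.10 in HOMO and 0.10 in WT. Dnase2a, which encodes the lysosomal DNase II, averaged 27.9 ± 2.46 CPM in HOMO CC and 18.1 ± 0.0476 CPM in HOMO CB (log2 change 0.62, edgeR adjusted p = 0.0238), and 35.1 ± 2.90 CPM in WT CC and 21.7 ± 1.64 CPM in WT CB (log2 change 0.69, adjusted p = 0.00156). Apex1, the base excision repair endonuclease gene, also rose in CC, with log2 changes of 0.66 in HOMO (edgeR adjusted p = 0.0308) and 0.48 in WT (adjusted p = 0.0176). The close relatives of Dnase1 passed in neither genotype with all libraries: Dnase1l1 was at 1.83 to 4.25 CPM and Dnase1l3, whose product clears DNA in chromatin, at 4.82 to 14.7 CPM; Dnase1l3 passed in WT without WT CC library 3 (adjusted p = 0.0129). The calls in HOMO named for the 8 lists were each lost when any 1 HOMO library was left out.

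Genes with the most similar pattern were sought among 8908 named genes with a mean of at least 5 CPM, by Pearson's r of log2 CPM over the 10 libraries. Against the mean of the 10 genes, the first 5 were Gcsam (0.995), Mirt1 (0.994), Abca3 (0.994), Hmces (0.993) and Map3k15 (0.992). Gcsam is itself a germinal center B cell gene. For single genes, the closest was Eif2ak3 for Reln (0.994) and Lgr5 (0.990), Gcsam for Ret (0.989), Aaed1 for Tgfa (0.992) and Zkscan16 (0.996), Stat5b for Scn11a (0.982), Mprip for Scn8a (0.992), Tcea1 for Tifa (0.980), Mtmr12 for Ccdc190 (0.983) and Pink1 for Dnase1 (0.991). The CC and CB division that the 10 genes were chosen for makes up most of each pattern, so such values are a description of that division.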

How the data were processed

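The authors deposited 1 table of raw read counts per gene for 10 libraries (mm10), with a column of exon length per gene. Per the submitters' processing notes, FastQC, STAR, Subread, featureCounts and R 4.2.1 were used; their parameters, and the strand setting, were not stated. Titles number the HOMO libraries 1 and 2 and the columns 2 and 3, so HOMO columns were matched to their group only.

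The counts were fitted in 1 model of 4 group means with edgeR 4.0.16 (R 4.3.3; TMM factors, minimum count 10 and minimum total 15 for the low-count filter, robust quasi-likelihood test, Benjamini-Hochberg adjustment over 16596 genes, threshold 0.05). Tables were made with Python 3.11.15 and pandas 2.3.3. Levels are TMM-scaled CPM, or RPKM from the deposited length. The self-test on simulated data recovered 37.3% of genes changed 2-fold and 98.5% changed 4-fold for HOMO against WT in CB, and 34.3% and 100% in CC. Of genes changed 1.5-fold it recovered 5.97% in CB and 1.49% in CC, so most differences of that size would be missed. It made 5 false calls in CB and 4 in CC. Changes were simulated only in genes averaging at least 5 CPM, with 1 fixed spread and independent libraries. Most of the 10 genes averaged under 5 CPM in CC, so these rates may not hold for them. Floors are 3 counts, and intervals are exact binomial at 95%; both cover counting error only.

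The 10 genes and the lists were chosen with earlier results of these data known. Named besides the 10 genes are up to 2 genes per list with the smallest p in CC against CB in WT among those past the threshold, a fixed list of direct partners, and the genes most alike in pattern. Some other listed genes were named after their values were seen. The values of 1 listed partner are not reported here. Of the 55421 gene IDs, 54587 matched GENCODE M21 with version and at the same coordinates.

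WT numbers were taken as pairing the libraries, from the data: deviations of same-numbered WT CB and WT CC libraries correlated at 0.384, 0.424 and 0.426 over 8910 genes, and differently numbered ones at -0.445 to 0.282. The main fit held no term for this pairing, so its p-values for CC against CB treat these libraries as independent. Pairing entered only the replicate block alternatives. No 2 libraries of a group agreed within sampling noise (chi-square per degree of freedom 4.14 to 80.7). Alternatives were DESeq2 1.42.0, upper-quartile factors, other filters, fits of 2 groups, libraries left out, a replicate block (limma 3.58.1 for the random one) and a GC content offset.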

Additional observations from a re-analysis of the deposited data

How the results depend on the processing

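The medians of the 10 genes in CC against CB kept sign under every alternative run: -3.16 to -2.90 in HOMO and -3.04 to -2.86 in WT with 1 library left out. With the WT number as a fixed replicate block they were -2.98 in HOMO and -2.99 in WT. Counts of calls were less stable, and the cause was not tested. For the 10 genes, HOMO against WT in CB (0 calls) gave 1 with no low-count filter (2.02% of all genes passed there) and 1 with DESeq2 (1.67%). It gave 5 without both libraries of WT number 3 (30.4%), and 0 to 1 with 1 WT library left out (0% to 12.1%). In CC (0 calls) it gave 4 with no filter (4.49%), 4 without WT number 3 (31.3%), 1 with DESeq2 (4.92%), and 0 to 3 with 1 WT library left out (0% to 14.8%). With the random replicate block, 0 of the 10 genes passed in CB and 0 in CC.

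Of the 90 other listed genes, HOMO against WT in CB (0 calls) gave 23 without WT number 3 (30.4% of all genes passed there), 2 with DESeq2 (1.67%), and 0 to 6 with 1 WT library left out (0% to 12.1%). In CC (0 calls) these were 33 (31.3%), 5 (4.92%) and 0 to 17 (0% to 14.8%), and 7 with no filter (4.49%). CC against CB in HOMO (8 calls) gave 31 with only the 2 groups compared (30.4%), 26 without WT number 3 (23%), 30 without WT numbers 1 and 2 (27%), 17 with the fixed replicate block (13.8%), 4 with the random replicate block (4.99%), 15 with DESeq2 (10%), and 0 to 13 with 1 library left out. In WT (36 calls) it gave 18 with only the 2 groups (15.6%), 44 with the fixed replicate block (35.4%), and 18 to 45 with 1 library left out (12.7% to 32.5%).

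Over all genes, HOMO against WT calls (4 in CB and 0 in CC) were 590 in CB and 1314 in CC with no filter. Upper-quartile factors turned the split of CC against CB calls from 409 higher and 495 lower to 586 higher and 416 lower in HOMO, and from 1917 higher and 2048 lower to 2351 higher and 1599 lower in WT. In CC, Scn11a in HOMO rests on 2 reads and Ccdc190 on 0, so their changes are limited by depth.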

Other observations

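The nearest tested protein-coding genes on either side of the 10 genes, 20 in all, changed in both directions. In CC against CB, 0 of the 20 were higher and 1 lower in HOMO, and 4 were higher and 6 lower in WT (edgeR, adjusted p under 0.05). Of all genes, 5.45% passed in HOMO (2.46% higher and 2.98% lower) and 23.9% in WT (11.6% higher and 12.3% lower). The WT counts in both directions exceeded these shares, which was not tested. The median log2 change of the 20 genes was -0.24 in HOMO and -0.05 in WT.

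Ptgr1, a prostaglandin-metabolising reductase gene 7.1 kb from Zkscan16, was the neighbour that fell in both genotypes, with log2 changes of -2.26 in HOMO (edgeR adjusted p = 0.00186) and -1.99 in WT (adjusted p = 0.000289). Rgs4, which encodes a regulator of G protein signalling and lies 181.0 kb from Ccdc190, fell in WT by 2.48 on the log2 scale (edgeR adjusted p = 0.00397), with -1.78 in HOMO (adjusted p = 0.289). Acvrl1, a receptor gene of the TGF-beta family known from endothelium and 82.6 kb from Scn8a, rose in WT by 4.004 on the log2 scale (edgeR adjusted p = 0.00115), with 1.51 in HOMO (adjusted p = 0.318). Lymphatic and sinusoidal endothelial markers summed to 21.1, 6.94 and 0.702 CPM in WT CC, against at most 0.747 CPM in CB. In WT CC libraries 1 and 2 nearly all of this was Stab2, and Lyve1 and Pdpn had 0 reads in WT CC. The macrophage and erythroid sums ran in the same order in WT CC. The part of these cell types in the Acvrl1 result was not tested. These neighbours were named after their values were seen.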
